A study of Mus musculus with 7 samples.

Results

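The TGF-beta ligands, receptors and Smads were described in mouse wound macrophages collected on day 7 (d7) and day 3 (d3) after sponge implantation. The genes are Tgfb1, Tgfb2, Tgfb3, Tgfbr1, Tgfbr2, Bambi-ps1, Smad2, Smad3, Smad4 and Smad7. They were picked by name, with earlier results of these data known. All but Bambi-ps1 are core genes of the pathway, and Bambi-ps1 is a pseudogene of the decoy receptor Bambi. Among several probe sets of 1 gene the highest mean level over the 7 arrays was to decide, but each of the 10 genes had only 1. Because earlier results were known when the genes were listed, the p-values given for them describe these arrays and are no independent evidence. They are 10 of the 30176 genes that a probe set with a single gene symbol names on the array. The d7 group holds 4 samples (replicates 5, 6, 7 and 8) and the d3 group 3 samples (replicates 1, 3 and 4), with 1 array each. All came from C57BL/6 mice with no transgene and no treatment besides wounding. The study's methods give the mice of its experiments as aged 8 to 10 weeks, with both sexes used. Polyvinyl alcohol sponges lay under the skin of the back for 3 or 7 days, CD11b+ cells were pulled from them with magnetic beads, and cells bearing the macrophage antigen EMR1 (the product of Adgre1) were then sorted, so the material is cells that entered an implant and not whole wound tissue. Each sample is labelled a biological replicate, and nothing in the sources says whether cells of several animals were pooled.

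TGF-beta is secreted as a latent dimer and must be freed before it binds its receptors. The ligand brings together a type II receptor (Tgfbr2) and a type I receptor (Tgfbr1), which phosphorylates Smad2 and Smad3. These join Smad4, enter the nucleus and switch genes on or off, while Smad7 blocks the type I receptor. In healing skin the pathway is known for attracting leukocytes, for restraining inflammatory macrophages and for driving fibroblasts to make matrix, and macrophages are a recognised source of TGF-beta1.

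The promoters of Tgfb1 and Tgfb2 are shown because these ligands lay on opposite sides of the array background on every array. Both sequences are RefSeq promoters of build GRCm38.p6, from 250 bases before to 50 bases after a start site, written 5′ to 3′ on the strand of the gene. Capitals mark 3 motifs searched on both strands, the Smad box CAGAC, the GC box GGGCGG and the TATA element TATAAA, and no marked motifs overlap. The Tgfb1 promoter is at chr7:25686752-25687051 on the plus strand and the Tgfb2 promoter at chr1:186705940-186706239 on the minus strand, there around a start inside the annotated span of the gene (186622787 to 186709697).
Tgfb1: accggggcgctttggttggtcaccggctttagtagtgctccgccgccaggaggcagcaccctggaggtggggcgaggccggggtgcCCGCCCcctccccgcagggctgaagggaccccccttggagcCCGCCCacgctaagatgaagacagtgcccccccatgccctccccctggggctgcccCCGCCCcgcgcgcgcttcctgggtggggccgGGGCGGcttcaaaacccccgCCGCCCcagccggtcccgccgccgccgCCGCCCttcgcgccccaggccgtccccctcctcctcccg
Tgfb2: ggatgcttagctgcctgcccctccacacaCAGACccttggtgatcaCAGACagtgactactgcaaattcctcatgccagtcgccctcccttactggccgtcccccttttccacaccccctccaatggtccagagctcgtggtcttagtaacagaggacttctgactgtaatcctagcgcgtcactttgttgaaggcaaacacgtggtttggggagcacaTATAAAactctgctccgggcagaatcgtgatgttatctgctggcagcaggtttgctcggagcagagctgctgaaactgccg
The Tgfb1 window held 6 GC boxes and neither of the other motifs, at a GC content of 77%. The Tgfb2 window held 2 Smad boxes and 1 TATA element with no GC box, at a GC content of 54.3%. Of 32851 promoters of this length, 49.6% held a Smad box, 35.7% a GC box and 13.6% a TATA element, and the median GC content was 52.7%. The same table has promoters for 5 of the 10 genes. Tgfb3 and Bambi-ps1 have no entry there.

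The deposited values are levels of probe sets on a log2 scale, which the authors had already processed, and a difference of 1 is a doubling. The array background was taken as 5.39, the top value reached by the antigenomic probes, which match no mouse sequence. Array medians ran from 4.14 to 4.17 on d7 and from 4.14 to 4.22 on d3. The median of the positive controls was 9.78 on d3 replicate 3, against 10.01 to 10.09 on the other 6 arrays. The 5222 negative control probe sets, whose targets the sources used here do not describe, reached much higher than the antigenomic probes. Their median was 5.32 to 5.36 on d7 and 5.15 to 5.36 on d3, and their 95th percentile 9.95 to 10.11 on d7 and 9.61 to 10.12 on d3, lowest on d3 replicate 1. Above the background therefore means here only above the antigenomic probes. Of the 10 genes, Tgfb1 alone exceeded that percentile on all 7 arrays, while Tgfb3 and Bambi-ps1 were under it on every array. Many probe sets hold exactly the same value on several arrays, with only 18.4% of 65956 carrying 7 different values, for a reason the sources do not give. The sorting markers Adgre1 (EMR1) and Itgam (CD11b) stood at 16.85 ± 0.02 and 17.10 ± 0.01 on d7 (SD, n = 4), and at 16.84 ± 0.02 and 17.13 ± 0.03 on d3 (SD, n = 3). All 8 defining macrophage markers were above the background. The days did not overlap for 3 that were higher on d7 (Mrc1, Mertk and Cd68) and 2 that were lower (Fcgr1 and Lyz2). The same held for 14.7% of probe sets above the background. Mrc1 had 16.68 on d7 and 15.26 on d3, Mertk 11.59 and 11.15, and Cd68 17.859 and 17.525. Fcgr1 had 16.593 on d7 and 16.965 on d3, Lyz2 19.36 and 19.45, and Csf1r 14.97 and 14.72. Mrc1 alone passed the test described below (adjusted p = 0.0263 from limma). Of 12 fibroblast markers measured 11 were at the background on both days, among them Col1a1, Col1a2, Col3a1, Dcn, Thy1 and Pdgfrb, while Acta2 had 6.30 on d7 and 6.12 on d3.

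Of the 10 genes, Tgfb3 rose and Bambi-ps1 fell on d7 at an adjusted p under 0.05, and the other 8 did not pass. The test was limma with Benjamini-Hochberg adjusted p-values over the 65956 probe sets, of which 0.117% passed (0.0637% higher and 0.0531% lower on d7). Among the 20204 probe sets above the background on at least 1 day 0.376% passed. The same 2 genes were the only ones of the 10 whose d7 and d3 arrays did not overlap, beside 6.00% of all probe sets and 14.7% of those above the background. The median log2 difference of the 10 genes, d7 minus d3, was -0.00093, against -0.00092 over all probe sets tested. Of the 10 genes 7 were above the background on every array, Tgfb2 and Smad7 were under it on every array, and Tgfb3 was above it on all 4 d7 arrays and 1 d3 array. The arrays measured sorted cells in bulk, so more cells that express a gene and more RNA per cell cannot be told apart.

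**Figure D1:**
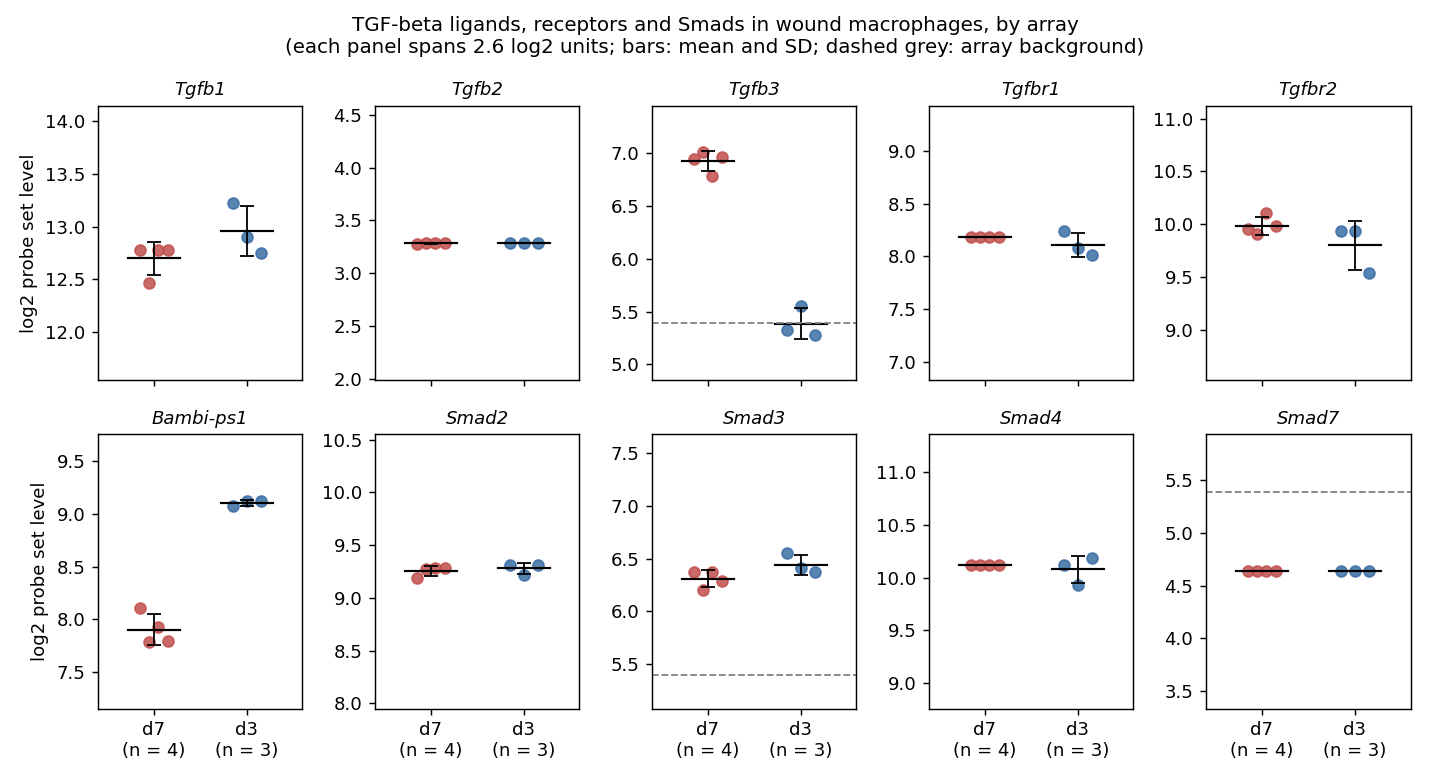
Level of each of the 10 genes on each array (vertical axis, log2 probe set level; d7 in red at the left, d3 in blue at the right; lines and bars, mean and SD; dashed grey, array background of 5.39, drawn where it falls in a panel). The d7 and d3 points are apart for Tgfb3 (6.79 to 7.01 on d7, 5.28 to 5.55 on d3) and Bambi-ps1 (7.78 to 8.11 on d7, 9.08 to 9.13 on d3) and overlap or coincide in the other 8 panels.

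Among the ligands, Tgfb3, whose product is best known from palate development and scar-poor repair, was the gene that rose. It had 6.95, 7.01, 6.79 and 6.96 on d7 replicates 5, 6, 7 and 8. On d3 it had 5.32, 5.55 and 5.28 on replicates 1, 3 and 4. The lowest d7 array lay 1.23 above the highest d3 array, a gap wider than the whole range within either group. The means were 6.93 ± 0.10 on d7 (SD, n = 4) and 5.39 ± 0.15 on d3 (SD, n = 3). The log2 difference was 1.54 (standard error 0.09, 95% confidence interval 1.33 to 1.76, adjusted p = 0.015 from limma), a measured 2.91-fold rise. Only d3 replicate 3 was above the background on d3, and the measured fold rests partly on d3 values at the background. With values under the background raised to it, the difference was 1.48, a 2.79-fold rise (adjusted p = 0.0344). The gene lies at 86056743 to 86079041 on chromosome 12 of GRCm38.p6.

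Leaving out 1 array moved the Tgfb3 difference by little (1.49 to 1.63). The call was kept without d3 replicate 1 (adjusted p = 0.037) or 3 (adjusted p = 0.0313) and lost without d3 replicate 4 (adjusted p = 0.0641) or d7 replicate 5, 6, 7 or 8 (adjusted p = 0.0702, 0.0965, 0.0751 and 0.097 from limma). Markers of other cells that could move with Tgfb3 were set beside it. The antilogged levels of the 12 fibroblast markers summed to between 281 and 297 on d7 and between 273 and 286 on d3, which overlap. Those of 5 platelet and erythroid markers, 3 of them above the background, summed to between 623809 and 657692 on d7 and between 449182 and 588831 on d3. Most of that sum was Pf4, platelet factor 4, at 19.27 on d7 and 18.98 on d3. Ppbp had 12.78 on d7 and 12.82 on d3 and Gp9 5.74 on d7 and 5.71 on d3, while Itga2b and Alas2 were at the background. The 10 markers of T, NK and innate lymphoid cells summed to between 2165 and 3190 on d7 and between 1389 and 1777 on d3. Of these 10 the only one above the background was Il7r, the interleukin 7 receptor, at 11.28 on d7 and 10.43 on d3, and Cd3d, Cd3e, Cd3g, Nkg7 and Ncr1 were at it. The part of the platelet and lymphoid markers in the Tgfb3 result was not tested.

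Tgfb1, which encodes the main TGF-beta of leukocytes and platelets, was well above the background on every array. It had 12.78 on d7 replicates 5, 7 and 8 and 12.46 on d7 replicate 6. On d3 it had 13.22, 12.90 and 12.75 on replicates 1, 3 and 4. The days overlapped, since d3 replicate 4 lay below 3 of the d7 arrays. The means were 12.70 ± 0.16 on d7 (SD, n = 4) and 12.96 ± 0.24 on d3 (SD, n = 3), with a log2 difference of -0.26 (95% confidence interval -0.61 to 0.09, adjusted p = 0.662 from limma). Without d7 replicate 6 the difference was -0.18 and without d3 replicate 1 it was -0.13. Tgfb2, a ligand best known from development of the heart and eye, was at 3.29 on 6 arrays and at 3.28 on d7 replicate 5, under the background throughout, so no difference in it was measurable here. These are the 2 genes whose promoters are shown above. Whether those start sites were used in these cells, and any link of their motifs to the levels, was not tested.

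Neither receptor passed, and both confidence intervals included 0. Tgfbr1, the type I receptor kinase also known as ALK5, had 8.18 on all 4 d7 arrays. On d3 it had 8.24, 8.08 and 8.01 on replicates 1, 3 and 4, on both sides of the d7 value. Its log2 difference was 0.08 (95% confidence interval -0.06 to 0.21, adjusted p = 0.662 from limma). It was 0.14 without d3 replicate 1 (adjusted p = 0.127) and 0.03 without d3 replicate 4 (adjusted p = 0.864 from limma). Tgfbr2, the type II receptor that binds the ligand first, had 9.95, 9.90, 10.10 and 9.98 on d7 replicates 5, 6, 7 and 8. On d3 it had 9.93 on replicates 1 and 3 and 9.53 on replicate 4. Its log2 difference was 0.19 (95% confidence interval -0.10 to 0.47, adjusted p = 0.662 from limma). That difference was 0.05 without d3 replicate 4, the array that stood apart from the other 6.

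Bambi-ps1 is annotated by RefSeq as a transcribed pseudogene at 122466583 to 122467797 on chromosome 2 of GRCm38.p6. Its parent gene Bambi encodes a decoy receptor that resembles a type I receptor but lacks the kinase, and no function is claimed here for the pseudogene. It fell on d7. The d7 replicates 5, 6, 7 and 8 had 8.11, 7.78, 7.93 and 7.80. The d3 replicates 1, 3 and 4 had 9.08, 9.12 and 9.13, a narrow band that lay 0.97 above the highest d7 array. The means were 7.90 ± 0.15 on d7 (SD, n = 4) and 9.11 ± 0.03 on d3 (SD, n = 3). The log2 difference was -1.20 (standard error 0.08, 95% confidence interval -1.41 to -0.99, adjusted p = 0.029 from limma), a 2.30-fold fall. With an array left out the difference ran from -1.27 to -1.16. The call was kept without d7 replicate 5 (adjusted p = 0.0386) or d3 replicate 1 (adjusted p = 0.0461) and lost without d7 replicate 6, 7 or 8 (adjusted p = 0.115, 0.149 and 0.121) or d3 replicate 3 or 4 (adjusted p = 0.0875 and 0.0924 from limma). It was also lost with dim values raised to the background (adjusted p = 0.0779), which left its own values as they were.

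The parent gene gave no measurable level. Bambi was under the background, at 5.06, 4.95, 5.13 and 5.03 on d7 replicates 5, 6, 7 and 8 and at 5.03 on all 3 d3 arrays. Its log2 difference was 0.01 (adjusted p = 0.957 from limma). Whether the probes of the pseudogene also bind Bambi or other transcripts was not tested. The nearest protein-coding genes on chromosome 2 are Slc28a2, a nucleoside transporter that ends 5431 bases before the pseudogene, and Slc28a2b, which starts 17144 bases after it. Slc28a2 had 14.21 ± 0.06 on d7 (SD, n = 4) and 14.70 ± 0.32 on d3 (SD, n = 3), with a log2 difference of -0.49 (adjusted p = 0.624 from limma). Slc28a2b had 11.33 ± 0.04 on d7 and 11.78 ± 0.33 on d3, with a log2 difference of -0.45 (adjusted p = 0.647 from limma). For both neighbours every d7 array lay below every d3 array, but narrowly, and neither passed. The highest d7 and lowest d3 arrays were at 14.28 and 14.33 for Slc28a2 and at 11.37 and 11.43 for Slc28a2b. Groups did not overlap, in either direction, in 14.7% of probe sets above the background. Bambi, Slc28a2 and Slc28a2b were named for their relation to the pseudogene after its value was seen.

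**Figure D2:**
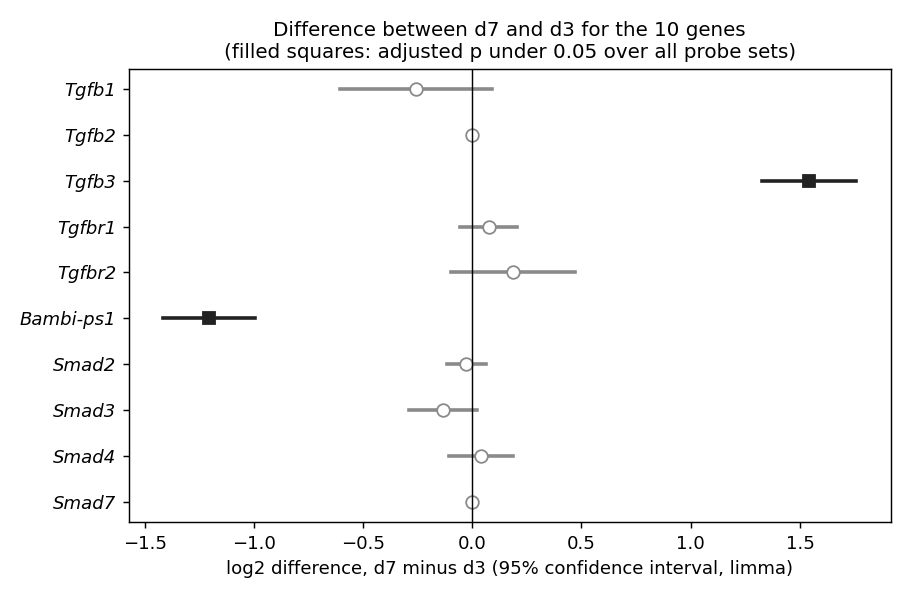
Log2 difference, d7 minus d3, of each of the 10 genes (horizontal axis) with its 95% confidence interval from limma; filled squares mark an adjusted p under 0.05 over all probe sets. The intervals of Tgfb3 (1.33 to 1.76) and Bambi-ps1 (-1.41 to -0.99) lie away from 0 and those of the other 8 include it.

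None of the 4 Smads passed. Smad2, a receptor-activated Smad, had 9.19, 9.27, 9.28 and 9.28 on d7 replicates 5, 6, 7 and 8. On d3 it had 9.31, 9.22 and 9.32 on replicates 1, 3 and 4, so the days overlapped. Its log2 difference was -0.03 (95% confidence interval -0.12 to 0.06, adjusted p = 0.77 from limma). Smad3, the other receptor-activated Smad, had 6.37, 6.20, 6.37 and 6.28 on d7 replicates 5, 6, 7 and 8. On d3 it had 6.55, 6.41 and 6.37 on replicates 1, 3 and 4. The lowest d3 array shared its value with 2 d7 arrays, and the other d3 arrays lay above all of d7. Its log2 difference was -0.14 (95% confidence interval -0.29 to 0.02, adjusted p = 0.661 from limma).

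Smad4, the partner that both of them need, had 10.12 on all 4 d7 arrays and on d3 replicate 1. The other d3 arrays had 9.94 on replicate 3 and 10.18 on replicate 4, on either side of that value. Its log2 difference was 0.04 (95% confidence interval -0.11 to 0.18, adjusted p = 0.792 from limma), and it was -0.03 without d3 replicate 3. Smad7, the inhibitory Smad and itself a target of the pathway, was at 4.63 on all 7 arrays, under the background, so the array measured neither its level nor a change in it. Of the 10 genes 8 carried a value shared by at least 2 arrays, and Tgfb3 and Bambi-ps1 were the 2 with 7 different values. Shared values narrow the spread within a group, and for Tgfbr1, Smad4 and Smad7 the d7 SD was 0.

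The wider pathway was read from 8 lists that together hold 150 genes, of which 144 were measured and 75 were above the background on at least 1 day. None of the 144 passed limma in either direction, and none passed the test that the study's methods name after Benjamini-Hochberg adjustment. At an unadjusted p under 0.05 from limma there were 23 (14 higher and 9 lower on d7), and 16 with the methods' test, beside 7.66% of all probe sets with limma and 5.54% with the methods' test. Of these 23 genes 22 were among the 75 above the background, beside 17.8% of all probe sets above it. The median log2 difference over the 144 genes was -0.00078. The genes given below are the 3 of each list with the highest mean over all arrays.

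Of 17 other ligands of the superfamily, 1 was above the background, none passed and 1 reached an unadjusted p under 0.05 (median log2 difference -0.02). That gene above the background was Gdf3, a ligand known from embryonic cells and adipose tissue macrophages, at 5.74 ± 0.27 on d7 (SD, n = 4) and 5.87 ± 0.05 on d3 (SD, n = 3). Bmp2, a bone morphogenetic protein, had means of 4.53 on d7 and 4.86 on d3, and Inhba, the activin A chain, 4.39 on d7 and 4.31 on d3, all under the background. Of 18 genes of latency and activation, which hold the latent ligand or free it, 10 were above the background, none passed and 6 reached an unadjusted p under 0.05 (4 higher and 2 lower, median log2 difference 0). Thbs1, thrombospondin-1, which can activate latent TGF-beta, had 16.48 ± 0.39 on d7 (SD, n = 4) and 16.04 ± 0.38 on d3 (SD, n = 3), with adjusted p = 0.662 from limma. Its d7 replicate 6 had 17.05, against 16.19 to 16.38 on the other d7 arrays. Mmp14, a membrane-bound metalloprotease, had 13.52 ± 0.25 on d7 and 14.14 ± 0.41 on d3, with adjusted p = 0.647 from limma. Itgb1, the integrin beta1 chain, had 12.51 on d7 replicate 5 and 12.55 on all the other arrays.

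Of 15 other receptors and co-receptors 9 were above the background, none passed and 2 were higher on d7 at an unadjusted p under 0.05 (median log2 difference 0.01). Bmpr2, a type II receptor for bone morphogenetic proteins, had 12.16 ± 0.01 on d7 (SD, n = 4) and 12.02 ± 0.20 on d3 (SD, n = 3), with d3 replicate 4 at 11.81. Fkbp1a, which holds type I receptors inactive, had means of 8.57 on d7 and 8.48 on d3, and Tgfbrap1, a receptor-associated protein, 8.50 on d7 and 8.36 on d3. Of 22 other Smads, Smad partners and regulators 17 were above the background, none passed, and 2 were higher and 2 lower at an unadjusted p under 0.05 (median log2 difference -0.01). The coactivators Crebbp and Ep300 had means of 11.97 and 11.92 on d7, against 12.16 and 11.96 on d3. Tgif1, a corepressor of Smads, had 10.02 on d7 and 10.14 on d3. Of 14 secreted antagonists 13 were at the background. Twsg1, which binds bone morphogenetic proteins, was the 1 above it, at 6.72 ± 0.09 on d7 (SD, n = 4) and 6.59 ± 0.04 on d3 (SD, n = 3), and Dcn and Chrd lay at 4.38 and 4.07 on d7 and at 4.35 and 4.07 on d3. In that list none passed, 1 was higher at an unadjusted p under 0.05 and the median log2 difference was 0.

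All 13 genes of the non-Smad branch were above the background, none passed and 1 was lower on d7 at an unadjusted p under 0.05 (median log2 difference -0.03). The small GTPase Rhoa, the TAK1 adaptor Tab2 and the kinase p38 alpha (Mapk14) had means of 13.07, 11.58 and 10.31 on d7, against 13.15, 11.55 and 10.31 on d3. Of 26 genes known as TGF-beta targets in various cells 13 were above the background, none passed, and 3 were higher and 1 lower at an unadjusted p under 0.05 (median log2 difference -0.04). Fn1, fibronectin, had 16.98 ± 0.13 on d7 (SD, n = 4) and 17.18 ± 0.30 on d3 (SD, n = 3). Tgfbi, a TGF-beta-induced matrix protein, had 15.90 ± 0.09 on d7 and 15.99 ± 0.09 on d3, and Cdkn1a, the cell cycle inhibitor p21, had 15.79 ± 0.13 on d7 and 15.56 ± 0.22 on d3, each with adjusted p = 0.662 from limma.

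Of 19 genes known to need TGF-beta in microglia or Langerhans cells, or that mark such macrophages, 11 were above the background, none passed, and 2 were higher and 2 lower at an unadjusted p under 0.05 (median log2 difference -0.0045). By mean, 8 were higher and 10 lower on d7. The days did not overlap for 4 that were higher and 2 that were lower. That compares with 6.00% of all probe sets and 14.7% of those above the background. C1qb, a chain of complement C1q, had 17.81 ± 0.09 on d7 (SD, n = 4) and 16.93 ± 0.80 on d3 (SD, n = 3), with no overlap between the days and adjusted p = 0.647 from limma. C1qa had 16.13 ± 0.06 on d7 and 15.56 ± 0.69 on d3, again with no overlap, and Csf1r, the receptor that macrophages need to survive, had 14.97 ± 0.06 on d7 and 14.72 ± 0.35 on d3. In each of these 3 genes d3 replicate 3 was the lowest array, at 16.01, 14.77 and 14.32, and it is also the array with the low positive controls. The differences without it were 0.42 for C1qb, 0.17 for C1qa and 0.04 for Csf1r. Every d7 array still lay above d3 replicates 1 and 4 for C1qb (at least 17.704 against 17.335 and 17.439). The same held for C1qa (at least 16.066 against 15.99 and 15.928), while Csf1r overlapped. The part of d3 replicate 3 in these differences was not tested.

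**Figure D3:**
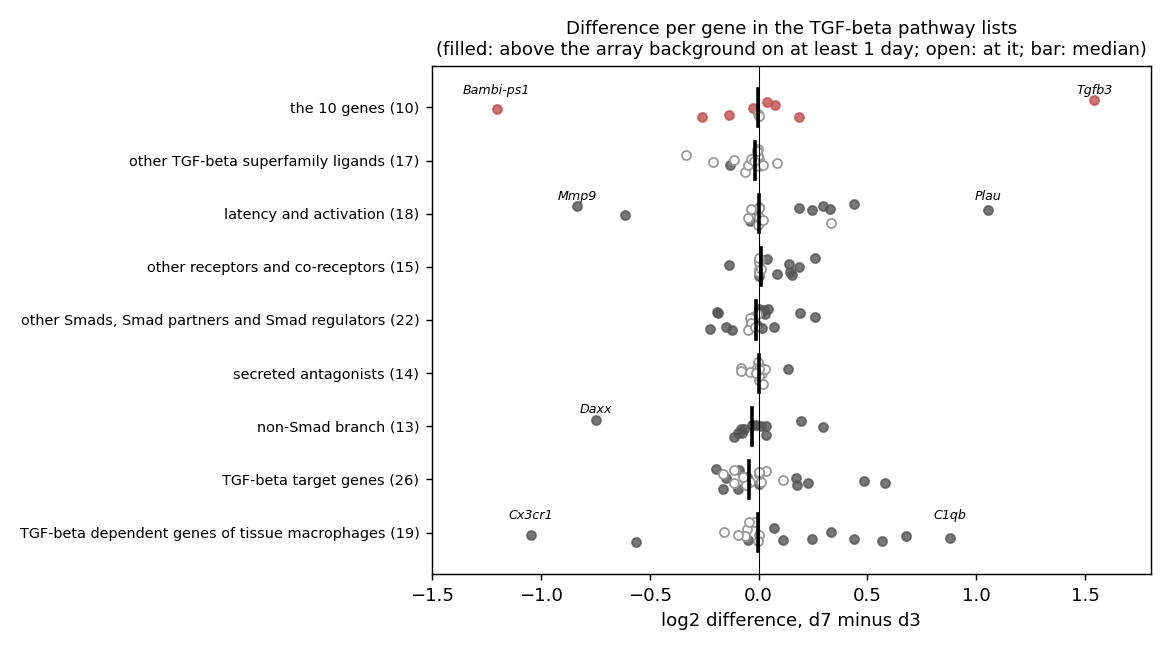
Log2 difference, d7 minus d3, of every measured gene (horizontal axis; 1 point per gene) in the 10 genes and the 8 pathway lists (rows, with the number measured); filled points were above the array background on at least 1 day, open points were at it, and black bars are medians. Tgfb3 at 1.54 and Bambi-ps1 at -1.20 are the outermost points of the plot, while the list medians lie between -0.04 and 0.01.

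The genes whose profile over the 7 arrays was nearest to each of the 2 genes that passed were looked up as a description. Likeness was the root mean square difference of log2 values after each gene's own mean was subtracted, over 11749 genes above the background on at least 1 day. Nearest to Tgfb3 were Mrc1, the mannose receptor CD206 (0.084), Hmox1, heme oxygenase 1 (0.113), Mgst1, a microsomal glutathione transferase (0.139), Cd36, a scavenger receptor for lipids (0.152), and Mfge8, which bridges apoptotic cells to phagocytes (0.160). Their log2 differences on d7 were 1.42, 1.53, 1.53, 1.39 and 1.48, and Mrc1 is also among the macrophage markers used above. All 3 d3 arrays of Mfge8 lay under the background, at 5.18, 5.39 and 5.36 on replicates 1, 3 and 4, so its value of 1.48 was taken against a level that was not measured, and it was among the genes compared only through d7. Nearest to Bambi-ps1 were Ifi203-ps, an interferon-inducible pseudogene (0.061), Kdr, a receptor for VEGF (0.0945), Treml2, a receptor of myeloid cells (0.111), Ccr2, the chemokine receptor of inflammatory monocytes (0.132), and Gm8369 (0.138). Their log2 differences on d7 were -1.13, -1.09, -1.31, -1.07 and -1.11. Kdr had 6.52 on d3 and 5.43 on d7, close to the background of 5.39, with d7 replicate 6 under it at 5.19. The size of its fall rests partly on values at the background. Kdr is also an endothelial marker, and the 7 endothelial markers measured summed, antilogged, to between 289 and 306 on d7 and between 351 and 380 on d3, with Kdr and Pecam1 above the background and Cdh5, Vwf, Tek, Cldn5 and Emcn at it. The 8 markers of mast cells, basophils and eosinophils summed to between 135 and 140 on d7 and between 153 and 191 on d3, with Siglecf, at 5.42 on d7 and 6.16 on d3, as the only one above the background and Cpa3, Mcpt4, Mcpt8 and Epx at it. The 10 neutrophil markers summed to between 6472 and 12554 on d7 and between 10257 and 14014 on d3, which overlap. Of these 10, 5 were above the background. Retnlg had 6.36 on d7 and 11.21 on d3 and Csf3r 12.35 on d7 and 12.71 on d3, while S100a8 had 10.66 on d7 and 10.52 on d3, S100a9 9.49 on d7 and 9.35 on d3, and Cxcr2 7.61 on d7 and 7.46 on d3, and Ly6g, Mpo, Elane, Camp and Ltf were at the background. The part of these markers in the Bambi-ps1 result was not tested.

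**Figure D4:**
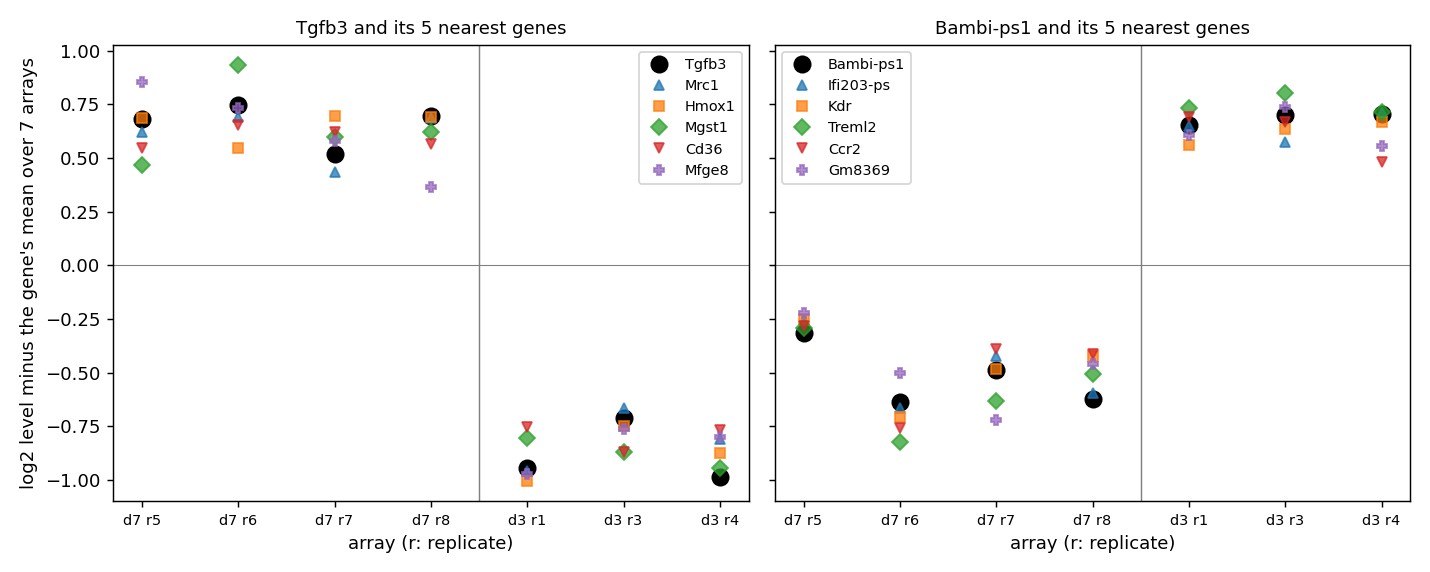
Profiles over the 7 arrays (horizontal axis, d7 replicates left of the line and d3 replicates right of it; vertical axis, log2 level minus the gene's own mean) of Tgfb3 and Bambi-ps1 (black) with the 5 genes nearest to each (coloured symbols). Both sets are split by day. Within d7 Bambi-ps1 and its nearest genes Ifi203-ps, Kdr, Treml2, Ccr2 and Gm8369 are highest on replicate 5, where Bambi-ps1 had 8.11. The 5 genes of each set were picked for nearness, so their likeness follows from the choice.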

How the data were processed

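RNA of sorted CD11b+ sponge macrophages was amplified, biotinylated and hybridized by the authors to Affymetrix GeneChip Mouse Transcriptome arrays (the labels name a WT Pico kit, the paper a WT PLUS kit). The deposited values are log2 probe set levels from 1.89 to 19.89. For this step the submitters' processing notes list Affymetrix Expression Console, without its version, and the paper lists Genespring GX and dChip. The normalization between arrays is not given in the sources used here.

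Leaving out 6732 array controls kept 65956 probe sets. A gene was named only from the platform table's probe sets with 1 symbol (30638, with 2176 listing several and 33142 none). The contrast was d7 minus d3, fitted without covariates by lmFit and eBayes (limma 3.58.1, R 4.3.3) and tested on both sides. Benjamini-Hochberg adjusted p-values over the whole table were held to a threshold of 0.05. The procedure was also run on simulated data, drawn as normal values with each probe set's own mean and SD. These do not copy values shared by some of the arrays, so they cannot show how such values affect the calls. Tables and plots were made in Python 3.11.15 (matplotlib 3.10.9, numpy 2.4.6, pandas 2.3.3). The number of arrays limits the precision. The p-values weigh a difference in means against the spread between these arrays, which limma moderates with the spread of all probe sets.

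The members and lists were chosen with earlier results of these data known. Named are all members, of each pathway list the genes that passed and the 3 with the highest mean, and the 5 nearest profiles of each member that passed. Of the listed pathway genes 6 were not analysed here. Alternatives were quantile normalization, median centring, a mean-variance trend, robust eBayes, array weights, the methods' t-test, filters at the background and at the median level, averaged probe sets, 1 probe set per gene, an adjusted p under 0.01 and each array left out. Raising dim values to the background was added after seeing the data.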

Additional observations from a re-analysis of the deposited data

Results flagged for a closer look

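Of 34 named genes checked on the 4 d7 arrays (the 10 genes and 24 of the pathway lists), 9 had 1 array far from the others by Dixon's test at the 95% level, where chance flags about 1 group in 20. Another 6 of the 34 held 1 value on all d7 arrays and could not be tested, so the 9 are of 28 genes. In 5 of the 9 the other 3 arrays held 1 identical value, so the gap fills the whole range however small it is. Replicate 6 was apart for Tgfb1, at 12.46 against 12.78 on the others. Replicate 5 was apart for Tgfb2, at 3.28 against 3.29, and for Smad2, at 9.19 against 9.27 to 9.28. Among the pathway genes, Itgb1 had 12.51 on replicate 5 against 12.55, Bmpr2 12.175 on replicate 6 against 12.161 to 12.162, and Tgfbrap1 8.65 on replicate 8 against 8.45. Tgif1 had 9.94 on replicate 8 against 10.04, Cdkn1a 15.99 on replicate 7 against 15.73, and Csf1r 15.06 on replicate 7 against 14.94. No cause of these values was tested.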

How the results depend on the processing

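Tgfb3 and Bambi-ps1 both passed, and kept their direction, after quantile normalization and median centring, with a mean-variance trend, robust eBayes or array weights, under either filter on dim probe sets, with averaged probe sets and with 1 probe set per gene. With the methods' t-test both had an unadjusted p under 0.05 and 0 genes of the 10 passed after adjustment (adjusted p = 0.0539 and 0.088). At an adjusted p under 0.01 the number was 0, and with dim values raised to the background it was 1 (Tgfb3). Leaving out 1 array gave between 0 and 2. Tgfb3 entered the filter at the background only through d7, since its d3 mean of 5.386 lay under 5.391. Its pass under that filter is therefore no separate support.

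All probe sets past the test numbered 77, against 169 after quantile normalization, 223 with median centring, 374 above the background, 208 at or above the median level, 13 with the methods' t-test (3652 unadjusted), 21 with dim values raised and 6 at an adjusted p under 0.01. Leaving out 1 array gave between 1 (without d7 replicate 8) and 212 (without d3 replicate 1). Among the other pathway genes 0 passed, against 1 above the background (Plau, a plasminogen activator) and between 0 and 1 with an array left out (Smurf1, a ubiquitin ligase, without d3 replicate 1). Plau and Smurf1 were named after their values were seen.

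Signs turned only where differences were small. Tgfb2 had 0.019 with median centring. Smad4 had -0.0053 with array weights and between -0.032 (without d3 replicate 3) and 0.091 with an array left out. Itgb1 had 0.023 after quantile normalization and 0.011 with median centring. Mapk14 had -0.014 after quantile normalization and between -0.038 and 0.041 with an array left out, where Inhba ran from -0.053 to 0.163 and Ep300 from -0.134 to 0.077. No paired analysis was possible because the days share no replicate number. Under the background of 5.39 a change could not be measured, which holds for Tgfb2 and Smad7.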
